A study of Homo sapiens with 14 samples.

Results

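ACO1 and 8 further genes of cellular iron handling were followed in LY2 cells, a breast cancer line labelled as tamoxifen resistant, after knockdown of the nuclear receptor coactivator SRC-1. The genes were ACO1, IREB2, TFRC, FTH1, FTL, SLC40A1, SLC11A2, FBXL5 and NCOA4, taken with every probe set that carries their symbol. The array annotation used here named 19 probe sets for 7 of the 9 genes, out of 54613 probe sets in all, and 0 of the probe sets that name several genes included any of them. IREB2 and FTH1 had no probe set under their symbol and were not analysed here. ACO1 was chosen by its knockdown values, among the largest falls with SRC1 siRNA in these data, so its knockdown values are given as a description, without a test. The remaining genes were taken for their roles in iron handling, with earlier results of these data known.

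Each sample was read on 1 Affymetrix HG-U133 Plus 2.0 array, 14 in all, and the values are on a log2 scale, so that a difference of 1 is a doubling of the signal. There were 2 arrays of cells with SRC1 siRNA and tamoxifen, 4 of cells with SRC1 siRNA left untreated, 4 of cells with control siRNA and tamoxifen, and 4 of cells with control siRNA left untreated. SRC1 siRNA was used at 40 nM, as was the scrambled control, and 24 hours after transfection the cells received 100 nM 4-hydroxytamoxifen, the active metabolite of tamoxifen, or ethanol for 2 hours. All groups came from cells kept in 10 nM 4-hydroxytamoxifen and grown without it for 72 hours beforehand, in charcoal-stripped serum, so every group had met the drug earlier. The SRC1 siRNA tamoxifen group held replicates 1 and 3, and the other groups replicates 1 to 4. The labels call the replicates biological without saying that cultures were separate, so p-values measure the spread between these arrays, whose number limits the precision. Adjusted p-values are those of limma, corrected by the Benjamini-Hochberg method over all 54613 probe sets, with a threshold of 0.05.

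Cells keep free iron within narrow limits mainly by controlling mRNAs after transcription. ACO1 encodes cytosolic aconitase. With an iron-sulfur cluster the protein turns citrate into isocitrate, and without the cluster it becomes iron regulatory protein 1, which binds hairpins in mRNAs called iron-responsive elements. Bound upstream of the coding sequence, as in ferritin and ferroportin mRNAs, it blocks translation. Bound downstream of it, as in the transferrin receptor mRNA, it protects the mRNA from decay. IREB2 encodes iron regulatory protein 2, which acts on the same hairpins and is removed by the ubiquitin ligase subunit FBXL5 when iron is plentiful.

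The regulatory sequences of ACO1 and of one of its targets are shown because ACO1 is the gene picked out by its fall and the hairpin is what its protein reads. The first line is the stretch of 250 bases before the ACO1 transcript start, at chr9:32384393-32384642 on the plus strand of GRCh38.p14, from RefSeq. Capitals mark GC boxes, the letters GGGCGG, a binding motif of the Sp family of transcription factors, or their reverse complement CCGCCC. The second line is a stretch of 25 bases of the FTL transcript, at chr19:48965334-48965358 on the plus strand of the same build, with the 6 loop letters of the iron-responsive element in capitals.
ACO1: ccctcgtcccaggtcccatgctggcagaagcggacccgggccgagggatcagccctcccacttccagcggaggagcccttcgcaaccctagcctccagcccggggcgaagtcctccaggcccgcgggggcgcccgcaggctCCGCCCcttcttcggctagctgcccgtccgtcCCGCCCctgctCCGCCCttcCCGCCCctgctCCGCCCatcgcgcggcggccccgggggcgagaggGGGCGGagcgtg
FTL: tctcttgcttcaaCAGTGTttggac

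The ACO1 stretch held 6 GC boxes, 1 in the forward and 5 in the reverse orientation. At least 1 GC box was present in 42.6% of 35116 windows of the same length before annotated starts, and at least 6 in 2.22%. The FTL loop matched CAGTGN, searched on the transcript strand alone, and began at base 39 of the transcript. CAGTGN was found in the first 50 transcribed bases of 6.36% of the windows, and in 2 of the 11 windows of the measured iron genes, those of FTL and of 1 of the 2 NCOA4 starts. A match to these letters is a description of the sequence and shows neither a site in use nor its absence elsewhere.

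The siRNA target was checked first. Knockdown differences are SRC1 siRNA minus control siRNA, and those given as with tamoxifen compare cells that both received it. NCOA1, the gene of SRC-1, averaged over its 4 probe sets 7.74 ± 0.25 (SD, n = 2) with SRC1 siRNA and tamoxifen, against 9.06 ± 0.18 (SD, n = 4) with control siRNA and tamoxifen. In untreated cells it averaged 7.70 ± 0.36 (SD, n = 4) with SRC1 siRNA and 8.997 ± 0.25 (SD, n = 4) with control siRNA. The signal was 60.0% lower with tamoxifen (two-sided exact permutation p = 0.133, the lowest possible among 15 regroupings) and 59.4% lower without it (two-sided exact permutation p = 0.0286, the lowest possible among 70 regroupings). Array medians lay between 3.44 and 3.51, and the median of the probe set means was 3.47, below which low signals crowd together and differences are compressed. Markers of luminal breast epithelium were above that median for 8 of 8 genes. Markers were below it for 6 of 7 fibroblast genes, the exception being COL1A1 with a mean of 10.9, for 4 of 5 measured immune genes, for 3 of 4 measured erythroid genes and for 3 of 4 hepatocyte genes. Knockdown calls among these markers, without tamoxifen, were 1 higher and 1 lower of 8 luminal genes and 1 lower of 4 measured erythroid genes. With tamoxifen they were 1 higher of 5 measured immune genes and 1 lower of 4 measured erythroid genes. Over all genes 11.9% passed without tamoxifen and 15.2% with it. The part of these markers in the results was not tested.

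ACO1 was lower on every array with SRC1 siRNA than on any array with control siRNA. Its brighter probe set, 207071_s_at, read 2.95 and 3.02 on the SRC1 siRNA tamoxifen arrays of replicates 1 and 3. It read 2.64, 2.97, 3.18 and 3.65 on the untreated SRC1 siRNA arrays of replicates 1 to 4. On control siRNA tamoxifen arrays ACO1 read 5.02, 4.67, 4.34 and 4.44, and on untreated control arrays 5.001, 4.64, 4.89 and 4.75. The gap between the siRNAs therefore ran from 3.65, the highest array with SRC1 siRNA, to 4.34, the lowest array with control siRNA. In these cultures of a single cell line, less ACO1 mRNA per cell and fewer cells with the mRNA cannot be told apart.

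**Figure D1:**
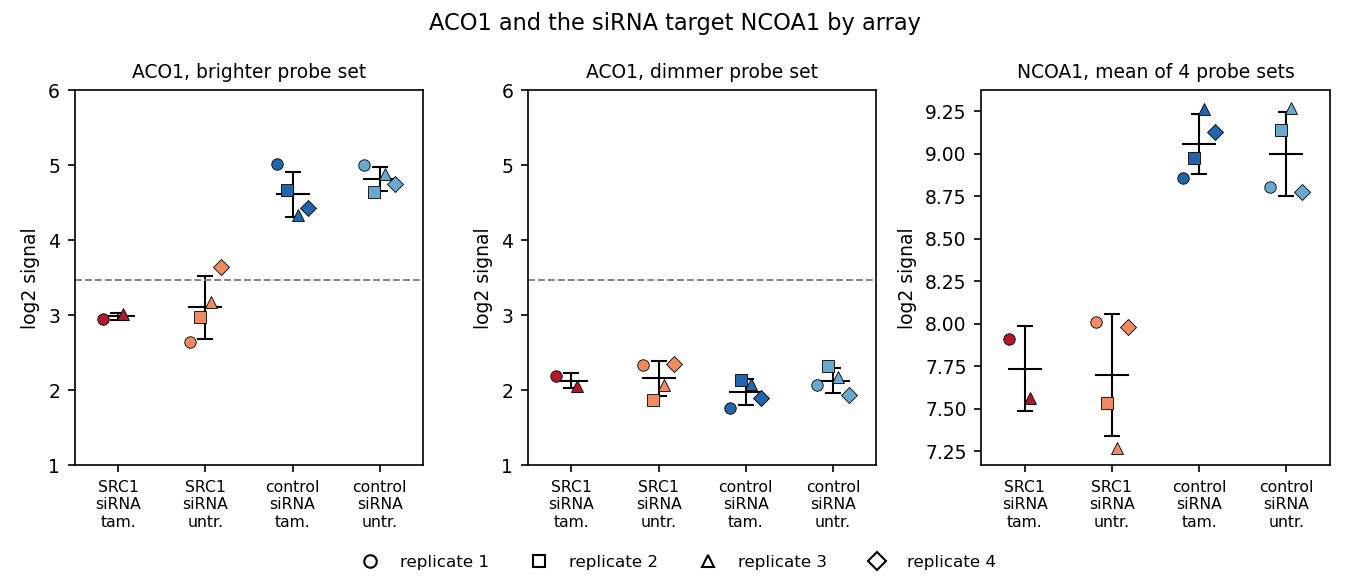
Log2 signal of both ACO1 probe sets and of NCOA1 (mean of 4 probe sets) on each of 14 arrays, in the 4 groups, with replicate numbers as symbols and group means ± SD as bars; the dashed line is the median of all probe set means, 3.47. The brighter ACO1 probe set lies between 2.64 and 3.65 on the SRC1 siRNA arrays and between 4.34 and 5.02 on the control siRNA arrays, and the dimmer probe set lies near 2 in all groups; the NCOA1 axis does not start at 0.

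With tamoxifen, ACO1 averaged 2.99 ± 0.05 (SD, n = 2) with SRC1 siRNA and 4.62 ± 0.30 (SD, n = 4) with control siRNA, a log2 difference of -1.63. Without tamoxifen it averaged 3.11 ± 0.42 (SD, n = 4) with SRC1 siRNA and 4.82 ± 0.16 (SD, n = 4) with control siRNA, a log2 difference of -1.71. The signal was thus 67.7% lower with tamoxifen and 69.5% lower without it. Both ACO1 means with SRC1 siRNA were below the median signal of 3.47, where differences are compressed, so that the size of its fall is uncertain. Untreated SRC1 siRNA replicate 4, at 3.65, was above that median.

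The labels number the replicates, and same-numbered arrays tended to deviate from their group means in opposite directions, for a reason not tested. Differences by number therefore only show their range. Between SRC1 and control siRNA arrays of the same number ACO1 differed by -2.07 and -1.32 with tamoxifen for replicates 1 and 3. In untreated cells it differed by -2.36, -1.67, -1.72 and -1.10 for replicates 1 to 4.

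A further ACO1 probe set, 237622_at, did not show the fall. It read 2.20 and 2.06 with SRC1 siRNA and tamoxifen, and 2.34, 1.87, 2.07 and 2.35 with SRC1 siRNA alone. It read 1.76, 2.14, 2.09 and 1.90 with control siRNA and tamoxifen, and 2.07, 2.32, 2.18 and 1.94 with control siRNA alone. All of these values lie in the lowest part of the signal range and the groups overlapped, with log2 differences of 0.15 with tamoxifen and 0.03 without it. Averaging both probe sets gave ACO1 differences of -0.74 and -0.84, so the description above rests on the brighter probe set.

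Tamoxifen was tested for ACO1, since it played no part in the choice of the gene. In SRC1-siRNA cells ACO1 differed by -0.12 between tamoxifen and untreated arrays (95% interval -0.61 to 0.37, adjusted p = 0.838). In control-siRNA cells it differed by -0.20 (95% interval -0.60 to 0.19, adjusted p = 0.632). The knockdown difference with tamoxifen minus that without it was 0.08 (95% interval -0.55 to 0.71, adjusted p = 0.911). In order of level the groups were untreated control siRNA, control siRNA with tamoxifen, untreated SRC1 siRNA and SRC1 siRNA with tamoxifen. Within each siRNA, the arrays with and without tamoxifen overlapped.

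The genes whose signal followed ACO1 most closely over the 14 arrays, among 12263 compared, were CMTM4 (Pearson r = 0.990), NUDT3 (0.984), UMODL1 (0.984), C5 (0.982) and LINC00674 (0.981). CMTM4, a membrane protein that stabilises PD-L1, averaged 9.58 in SRC1 siRNA tamoxifen cells, 9.50 in untreated SRC1 siRNA cells, 10.42 in control siRNA tamoxifen cells and 10.49 in untreated control siRNA cells. With the group means taken out, CMTM4 (0.953) and NUDT3 (0.928), a hydrolase of diphosphoinositol phosphates, again led, followed by RAPGEF3 (0.918), CATSPERZ (0.918) and COX18 (0.914). These correlations are a description over 14 arrays that share their processing. They were picked as the highest of 12263 and were not tested. The first set follows the siRNA groups themselves. In the second, RAPGEF3 and CATSPERZ were weak, with group means of 4.03 to 4.24 and 3.54 to 4.01.

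The other 6 measured genes were tested in both knockdown comparisons, over 17 probe sets. In tamoxifen-treated cells 1 of 17 probe sets passed, higher, where 13.5% of all probe sets passed in either direction and 5.76% as higher (6 had an unadjusted p under 0.05). In untreated cells 0 of 17 passed, where 10.4% of all probe sets did (5 had an unadjusted p under 0.05, and the lowest adjusted p was 0.0743). Their differences ran from -0.27 to 0.29 with tamoxifen and from -0.18 to 0.24 without it, with medians of -0.07 and 0.10. The medians over all probe sets were -0.02 and -0.00382. Arrays of the groups did not overlap for 8 of the 17 probe sets with tamoxifen, where the SRC1 siRNA group had 2 arrays and 36% of all probe sets did not overlap. Without tamoxifen it was 3 of 17, against 16.2% of all probe sets.

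**Figure D2:**
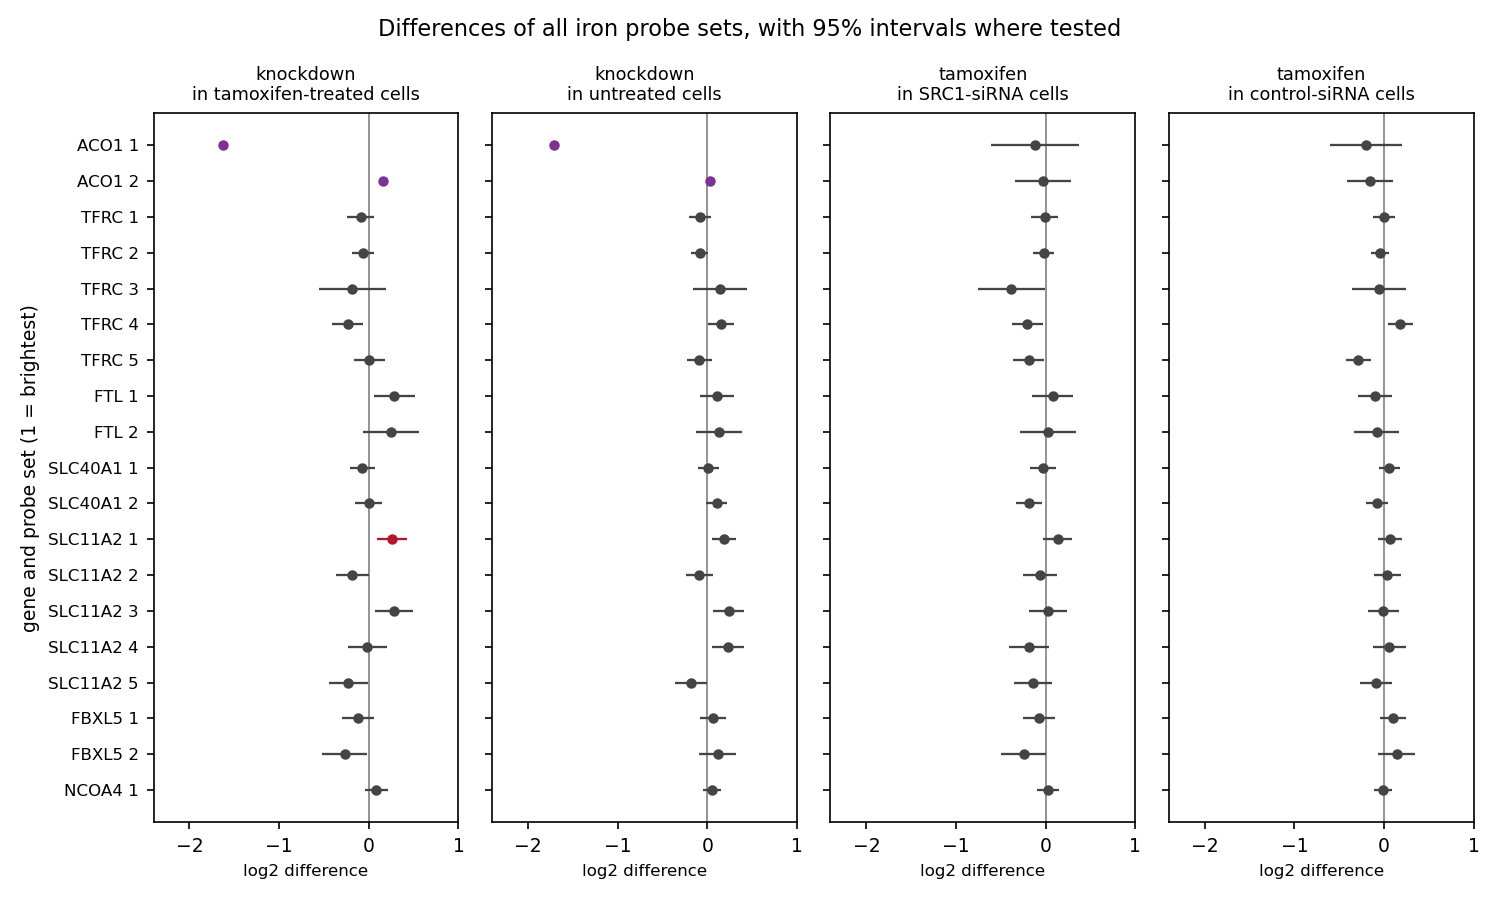
Log2 differences (points) with limma 95% intervals (lines) for the 19 iron probe sets, numbered from the brightest within each gene, in 4 comparisons, each as the first-named condition minus its control. ACO1 is in purple without an interval in the knockdown panels, where it was not tested; the red point is the SLC11A2 probe set that passed, at 0.26, and every other tested difference lies between -0.38 and 0.29.

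SLC11A2, also called DMT1, carries ferrous iron across the cell membrane and out of endosomes, and some of its transcripts carry an iron-responsive element. Its brightest probe set, 203124_s_at, read 10.79 and 10.68 with SRC1 siRNA and tamoxifen, and 10.56, 10.48, 10.42 and 10.45 with control siRNA and tamoxifen. It was higher on both SRC1 siRNA arrays than on any control array, by 0.26 ± 0.08 (SE), a signal 19.4% higher (95% interval of the log2 difference 0.09 to 0.42, adjusted p = 0.0427). In untreated cells it read 10.58, 10.59, 10.64 and 10.58 with SRC1 siRNA, against 10.22, 10.44, 10.52 and 10.46 with control siRNA. These groups did not overlap either, and the difference of 0.19 did not pass (95% interval 0.05 to 0.32, adjusted p = 0.0743).

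The call on SLC11A2 in tamoxifen-treated cells was at the threshold. It was lost with the replicate number as a term (adjusted p = 0.185), in a fit of only the arrays compared (adjusted p = 0.0842), with array weights (adjusted p = 0.0535) and with median centring (adjusted p = 0.0516). Leaving out 1 array at a time, with the other groups supplying the spread where 1 SRC1 siRNA tamoxifen array was left, gave differences of 0.20 to 0.31, and the call held only without control siRNA tamoxifen replicate 1 or without untreated control siRNA replicate 1 or 3.

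The 5 probe sets of SLC11A2 did not move together. With tamoxifen and SRC1 siRNA, 203123_s_at read 8.47 and 8.52, against 8.11, 8.27, 8.06 and 8.44 with control siRNA, a difference of 0.28 (adjusted p = 0.0775). Without tamoxifen 203123_s_at differed by 0.24 (adjusted p = 0.0767), with 8.45, 8.496, 8.55 and 8.38 against 8.32, 8.20, 8.30 and 8.09, and again the groups did not overlap. For 203125_x_at the differences were -0.02 with tamoxifen and 0.23 without it. For 210047_at they were -0.18 and -0.09, and for the dim 237106_at -0.23 and -0.18, none of which passed. With tamoxifen the arrays of 210047_at and 237106_at did not overlap either, in the lower direction. For 210047_at they lay between 9.237 and 9.436 with SRC1 siRNA and between 9.439 and 9.560 with control siRNA. For 237106_at they lay between 2.264 and 2.379 with SRC1 siRNA and between 2.420 and 2.677 with control siRNA. The mean over all probe sets of SLC11A2 differed by 0.02 with tamoxifen (adjusted p = 0.818). The annotation does not say which transcript forms each probe set detects.

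**Figure D3:**
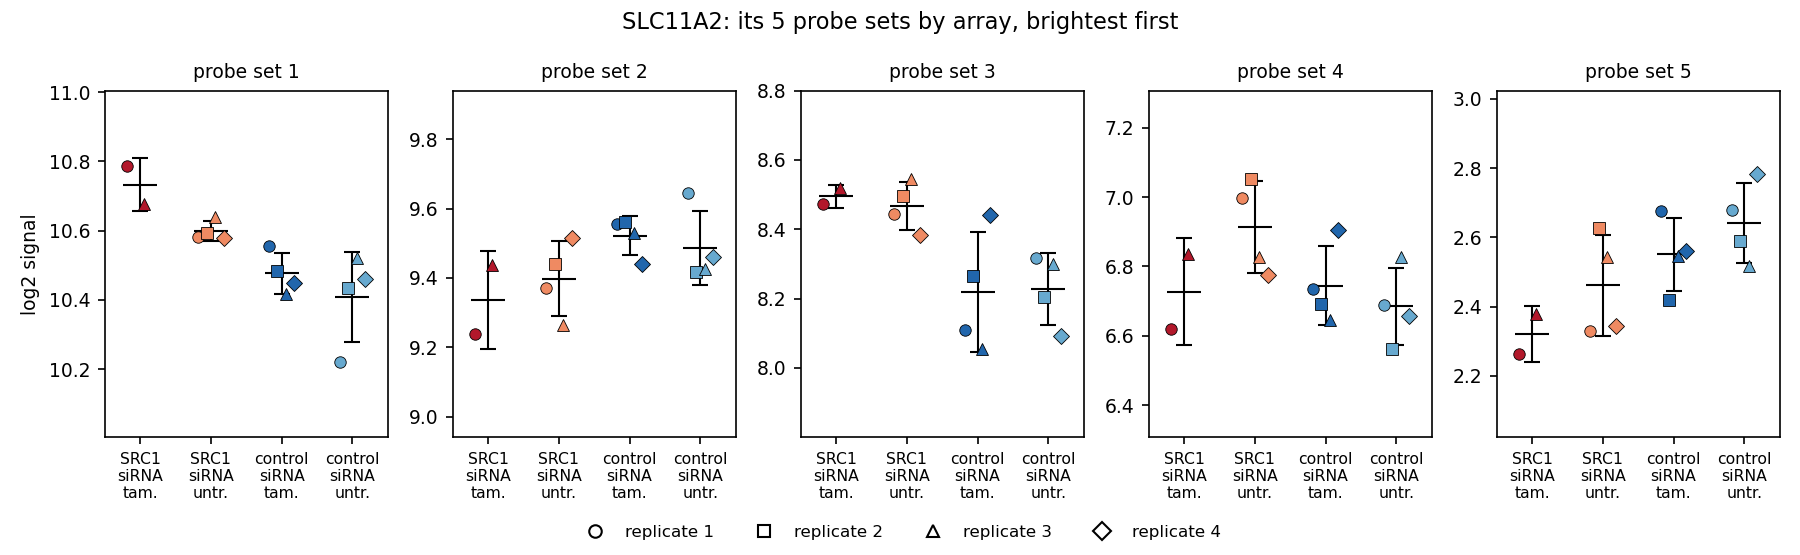
Log2 signal of the 5 SLC11A2 probe sets on each of 14 arrays, from the brightest (203124_s_at) to the dimmest (237106_at), with group means ± SD as bars; the vertical axes span 1 unit each and do not start at 0. Probe sets 1 and 3 are higher on the SRC1 siRNA arrays than on most control siRNA arrays, while probe sets 2 and 5 have lower means with SRC1 siRNA, by 0.09 to 0.23.

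TFRC encodes the transferrin receptor, through which cells take up transferrin-bound iron, and its mRNA is the best-known one that iron regulatory proteins protect. The brightest TFRC probe set, 208691_at, read 13.08 and 12.98 with SRC1 siRNA and tamoxifen, and 13.15, 13.14, 13.17 and 13.004 with control siRNA and tamoxifen. In untreated cells it read 12.93, 13.03, 13.11 and 13.08 with SRC1 siRNA, and 13.13, 13.14, 13.04 and 13.18 with control siRNA. The TFRC difference was -0.09 in both treatments, with 95% intervals of -0.24 to 0.06 with tamoxifen (adjusted p = 0.435) and of -0.21 to 0.04 without it (adjusted p = 0.386). The next probe set, 207332_s_at, differed by -0.07 with tamoxifen and -0.09 without it. Both strong TFRC probe sets thus had slightly lower means with SRC1 siRNA, within the spread of this test.

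The weaker TFRC probe sets varied more. The probe set 240686_x_at, which lies close to the median signal, read 3.29 and 3.47 with SRC1 siRNA and tamoxifen, and 3.67, 3.502, 3.64 and 3.65 with control siRNA and tamoxifen. Its difference was -0.23 with tamoxifen (adjusted p = 0.0695) and 0.15 without it (adjusted p = 0.158), and the change between the 2 was -0.39 (adjusted p = 0.100). With median centring the -0.23 passed, as 1 TFRC call at an adjusted p of 0.0496, and without SRC1 siRNA untreated replicate 2 likewise at 0.0478. The remaining 2 TFRC probe sets, 237215_s_at and the dim 237214_at, differed by -0.18 and 0.01 with tamoxifen and by 0.14 and -0.09 without it.

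FTL encodes the light chain of ferritin, the protein shell that stores iron, and carries the hairpin printed above. Its brighter probe set, 212788_x_at, read 12.68 and 12.86 with SRC1 siRNA and tamoxifen, and 12.47, 12.36, 12.42 and 12.68 with control siRNA and tamoxifen. The FTL groups just missed each other, and the difference of 0.29 did not pass (95% interval 0.06 to 0.52, adjusted p = 0.0908). It passed without control siRNA tamoxifen replicate 4, the highest FTL array of its group (adjusted p = 0.0409, difference 0.35). In untreated cells FTL read 12.73, 12.86, 12.57 and 12.61 with SRC1 siRNA, against 12.51, 12.61, 12.74 and 12.47 with control siRNA, and differed by 0.11 (adjusted p = 0.469). The other probe set, 213187_x_at, differed by 0.24 with tamoxifen (adjusted p = 0.283) and by 0.13 without it (adjusted p = 0.536). FTL has many processed pseudogenes, and both probe sets carry the suffix for probes that may also bind related sequences, so these values are uncertain.

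FBXL5 had 2 probe sets. The brighter, 209004_s_at, read 11.28 and 11.13 with SRC1 siRNA and tamoxifen, against 11.26, 11.38, 11.44 and 11.21 with control siRNA and tamoxifen, a difference of -0.12 (adjusted p = 0.369). Without tamoxifen FBXL5 read 11.34, 11.15, 11.33 and 11.30 with SRC1 siRNA, against 11.16, 11.32, 11.17 and 11.23 with control siRNA, a difference of 0.06 (adjusted p = 0.629). The weaker probe set, 209005_at, differed by -0.27 with tamoxifen (adjusted p = 0.146) and by 0.12 without it (adjusted p = 0.483), and the change between the treatments was -0.39 (adjusted p = 0.220). Groups of both probe sets overlapped.

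NCOA4, the receptor that delivers ferritin to the lysosome for iron release, read 12.28 and 12.30 with SRC1 siRNA and tamoxifen, against 12.16, 12.21, 12.23 and 12.22 with control siRNA and tamoxifen. The difference of 0.09 did not pass (95% interval -0.04 to 0.21, adjusted p = 0.354), although the arrays did not overlap. In untreated cells NCOA4 read 12.36, 12.20, 12.22 and 12.28 with SRC1 siRNA and 12.23, 12.27, 12.19 and 12.16 with control siRNA, and differed by 0.05 (95% interval -0.05 to 0.15, adjusted p = 0.548). NCOA4 is named as a nuclear receptor coactivator like NCOA1, and its signal was among the steadiest of the set.

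SLC40A1, ferroportin, is the only known exporter of iron from cells. Both of its probe sets stayed in the lowest part of the signal range, between 1.83 and 2.03 for 233123_at and between 1.42 and 1.73 for 223044_at over all arrays. The SLC40A1 differences were -0.07 (adjusted p = 0.516) and -0.00331 (adjusted p = 0.982) with tamoxifen, and 0.01 (adjusted p = 0.906) and 0.10 (adjusted p = 0.270) without it. The arrays of 223044_at did not overlap in untreated cells, between 1.67 and 1.73 with SRC1 siRNA and between 1.55 and 1.65 with control siRNA. With both probe sets so dim, these data say little about the SLC40A1 mRNA.

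**Figure D4:**
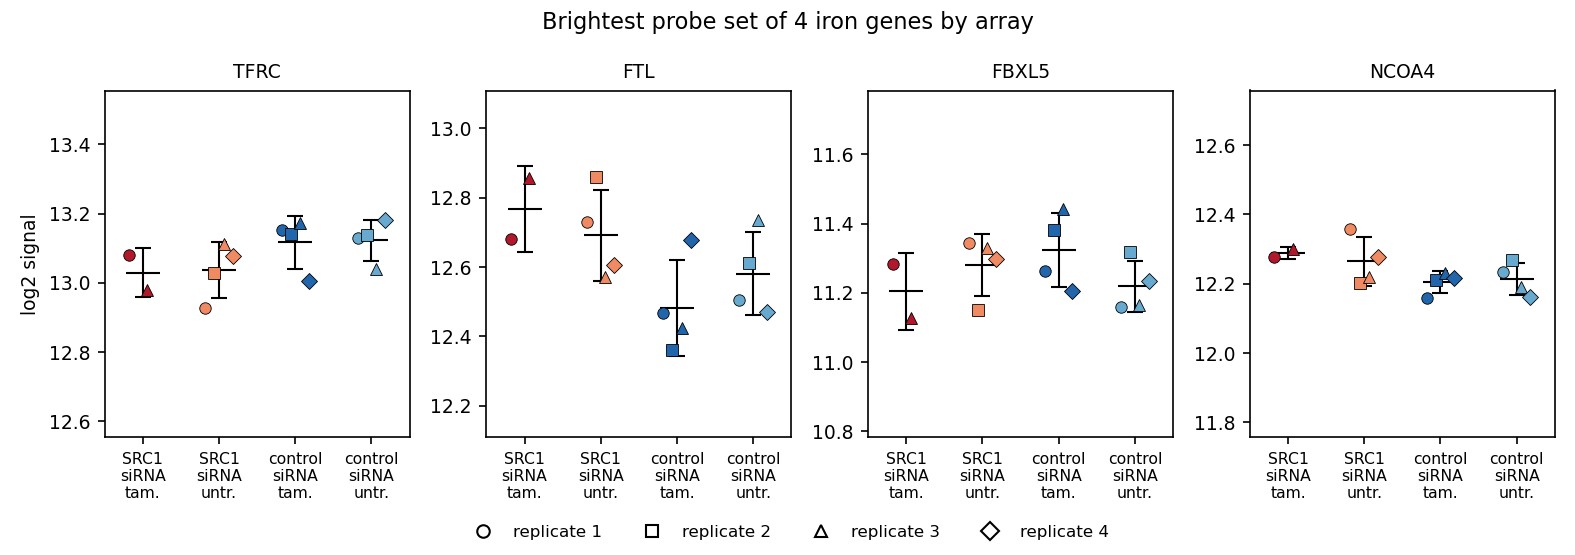
Log2 signal of the brightest probe set of TFRC, FTL, FBXL5 and NCOA4 on each of 14 arrays, with group means ± SD as bars and replicate numbers as symbols; the vertical axes span 1 unit each and do not start at 0. TFRC lies between 12.93 and 13.18 and NCOA4 between 12.16 and 12.36, and for FTL both SRC1 siRNA tamoxifen arrays lie above or level with the highest control siRNA tamoxifen array, 12.68.

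For tamoxifen over 2 hours, 0 of the 19 probe sets passed the test, those of ACO1 included. In SRC1-siRNA cells 0 of 19 passed, where 1.51% of all probe sets did (4 had an unadjusted p under 0.05, and the lowest adjusted p was 0.191). In control-siRNA cells 0 of 19 passed, where 0.163% of all probe sets did (2 had an unadjusted p under 0.05). The lowest adjusted p there was 0.0791, for the TFRC probe set 237214_at, which read 2.02, 2.05, 1.82 and 1.89 with tamoxifen and 2.19, 2.10, 2.28 and 2.34 without it, a difference of -0.29 at the foot of the signal range. Differences ran from -0.38 to 0.13 in SRC1-siRNA cells and from -0.29 to 0.18 in control-siRNA cells. For the change of the knockdown difference with tamoxifen, 0 of 19 passed, where 0.28% of all probe sets did (2 had an unadjusted p under 0.05, with the lowest adjusted p at 0.100).

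A wider set of iron genes was read for comparison, 101 genes in 9 lists, of which 93 had a probe set and 8 were not analysed here. These lists too were chosen with earlier results of these data known. Each was represented by its brightest probe set. In tamoxifen-treated cells 9 were higher and 9 lower with SRC1 siRNA, 19.4% of the 93, where 15.2% of all genes passed. In untreated cells 6 were higher and 10 lower, 17.2% of the 93, where 11.9% of all genes passed. The median differences were -0.02 in both, against medians of -0.03 with tamoxifen and -0.00360 without it over all genes. With a term for the replicate number, 2 were higher and 1 lower in tamoxifen-treated cells, and 3 were higher and 3 lower in untreated cells. For tamoxifen itself 0 of the 93 passed in SRC1-siRNA cells, where 0.819% of genes did, and 0 in control-siRNA cells, where 0.248% did. For the interaction 0 passed as well, where 0.172% of genes did. SRC1 siRNA tamoxifen replicate 1 decided most of the calls with tamoxifen: without it 1 gene was higher, EPAS1, and 0 were lower. Without SRC1 siRNA tamoxifen replicate 3 they were 5 and 4. Calls over all probe sets were also fewer, 1390 and 4190 in these settings, against 7350 with all arrays. In both, a single array stood for its group, whose spread was taken from the other groups. Without untreated SRC1 siRNA replicate 1 the iron gene counts in untreated cells were 3 and 5, and the calls over all probe sets 3626 against 5653.

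The largest rise was in EPAS1, which encodes the hypoxia-inducible factor HIF-2 alpha and has a reported iron-responsive element before its coding sequence. EPAS1 read 9.74 and 9.38 with SRC1 siRNA and tamoxifen, and 7.56, 7.86, 8.03 and 8.14 with control siRNA and tamoxifen, a difference of 1.67 ± 0.24 (SE, adjusted p = 0.00166). In untreated cells EPAS1 read 9.62, 9.52, 9.37 and 8.61 with SRC1 siRNA and 8.04, 8.14, 8.35 and 8.53 with control siRNA, a difference of 1.02 ± 0.20 (SE, adjusted p = 0.00639). The lowest SRC1 siRNA array, replicate 4, was just above the highest control array. EPAS1 passed in both treatments under all 23 alternatives. Of the 2 dim EPAS1 probe sets, the dimmer differed by 0.89 in tamoxifen-treated cells (adjusted p = 0.05004) and by 0.98 in untreated cells (adjusted p = 0.0153), and the other by 0.01 and 0.16, without passing. Of the other 6 measured genes with a reported iron-responsive element, the peptidase ENPEP was lower in tamoxifen-treated cells (-0.55, adjusted p = 0.0256) and the kinase CDC42BPA was lower in untreated cells (-0.22, adjusted p = 0.0240). The other probe set of ENPEP differed by -0.02, and those of CDC42BPA by -0.54 to 0.12.

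HMOX1, heme oxygenase 1, which breaks down heme and frees its iron, also rose. It read 7.19 and 7.17 with SRC1 siRNA and tamoxifen, and 5.88, 6.19, 6.24 and 6.36 with control siRNA and tamoxifen, a difference of 1.02 ± 0.19 (SE, adjusted p = 0.00489). In untreated cells HMOX1 read 7.51, 7.25, 7.08 and 7.22 with SRC1 siRNA and 6.10, 6.58, 6.71 and 5.99 with control siRNA, a difference of 0.92 ± 0.15 (SE, adjusted p = 0.00272). The HMOX1 groups did not overlap, and its call without tamoxifen held under all 23 alternatives. With tamoxifen it was lost without SRC1 siRNA tamoxifen replicate 1 (adjusted p = 0.0543), where the spread of the remaining array was taken from the other groups. Among the 16 measured genes of heme synthesis, transport and breakdown, 3 were higher and 1 lower in tamoxifen-treated cells. In untreated cells 1 was higher and 1 lower. The shares over all genes were 15.2% and 11.9%, and 1 of the 16 was below the median signal. The porphyrin transporter ABCB6 (0.38) and the biliverdin reductase BLVRA (0.25) rose in tamoxifen-treated cells, and the synthesis enzyme CPOX fell (-0.33). The synthesis enzyme ALAD fell in untreated cells (-0.35). Other probe sets did not share these calls: those of BLVRA differed by -0.06 to 0.16 and that of ABCB6 by -0.06, and the means over all probe sets were 0.09 for BLVRA (adjusted p = 0.498), 0.16 for ABCB6 (adjusted p = 0.141) and -0.17 for ALAD (adjusted p = 0.0890).

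Of 17 genes of iron uptake and transport, 3 were higher and 2 lower in tamoxifen-treated cells, and 2 higher and 4 lower in untreated cells. The shares over all genes were 15.2% and 11.9%, and 7 of the 17 were below the median signal. The mitochondrial iron importer SLC25A28 rose in both treatments, by 0.55 in tamoxifen-treated cells (adjusted p = 0.0324) and by 0.44 in untreated cells (adjusted p = 0.0405), and its next brightest probe set rose by 0.55 and 0.50. The metal transporter SLC39A8 fell in both, by 0.29 (adjusted p = 0.0224) with tamoxifen and by 0.24 (adjusted p = 0.0228) without it, while its other 5 probe sets differed by -0.60 to 0.12 and -0.35 to 0.08. SLC39A14, which imports iron not bound to transferrin, fell in tamoxifen-treated cells (-0.39), where the lysosomal channel MCOLN1 (0.33) and the dim siderophore-binding LCN2 (0.41) rose. In untreated cells the metalloreductase STEAP4 rose by 0.99 (adjusted p = 0.0122), reading 6.23, 6.98, 6.85 and 7.18 with SRC1 siRNA and 6.06, 6.05, 5.82 and 5.33 with control siRNA. The STEAP4 call was lost without the arrays of replicate 4 (adjusted p = 0.0577, difference 0.69). STEAP3, the reductase of the transferrin cycle (-0.36), the receptor TFR2 (-0.41) and the dim STEAP1 (-0.29) fell there. The calls on STEAP3 and TFR2 did not extend to their other probe sets, at -0.03 for STEAP3 and at 0.11 and -0.05 for TFR2.

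Among 10 measured genes of systemic iron control, 1 was higher and 1 lower in both treatments. The shares over all genes were 15.2% with tamoxifen and 11.9% without it, and 4 of the 10 were below the median signal. ERFE, erythroferrone, a hormone that lowers hepcidin, fell by 0.92 in tamoxifen-treated cells (adjusted p = 0.00610) and by 0.56 in untreated cells (adjusted p = 0.0273). ERFE read 5.14 and 5.75 with SRC1 siRNA and tamoxifen, against 6.57, 6.53, 6.29 and 6.09 with control siRNA and tamoxifen. With the replicate number as a term its adjusted p was 0.0502 with tamoxifen and 0.0933 without it. ACVR1, a receptor of bone morphogenetic proteins, rose by 0.45 in tamoxifen-treated cells (adjusted p = 0.0392) and by 0.39 in untreated cells (adjusted p = 0.0345), and was lost with that term in both treatments.

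**Figure D5:**
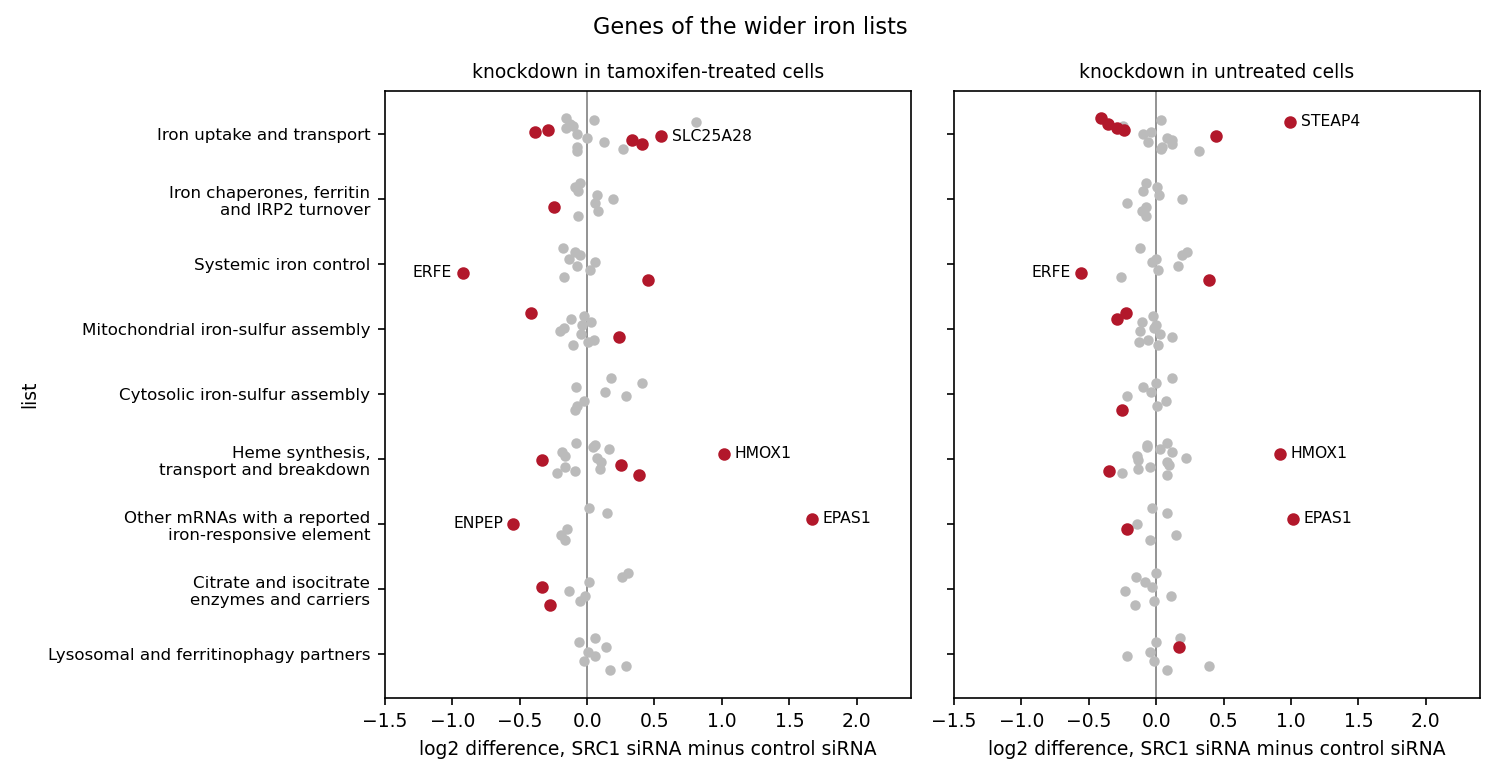
Log2 differences between SRC1 siRNA and control siRNA for the 93 genes of 9 wider iron lists, each by its brightest probe set, in tamoxifen-treated and untreated cells; red points passed limma at an adjusted p under 0.05, grey points did not, and genes that passed with a difference past 0.5 in size are named. EPAS1, HMOX1 and STEAP4 lie farthest to the right among the genes that passed and ERFE farthest to the left, and most genes lie close to 0.

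The mitochondrial assembly of iron-sulfur clusters, which iron regulatory protein 1 needs to become aconitase, had 12 measured genes. Of these, 1 was higher and 1 lower in tamoxifen-treated cells, and 0 were higher and 2 lower in untreated cells. The shares over all genes were 15.2% and 11.9%. The cluster carrier NFU1 fell by 0.42 in tamoxifen-treated cells (adjusted p = 0.00373) and by 0.23 in untreated cells (adjusted p = 0.0301). NFU1 read 9.96 and 10.10 with SRC1 siRNA and tamoxifen, against 10.44, 10.51, 10.43 and 10.43 with control siRNA and tamoxifen. LYRM4, a partner of the cysteine desulfurase, fell in untreated cells (-0.29), and the co-chaperone HSCB rose in tamoxifen-treated cells (0.23). In cytosolic cluster assembly 0 of 8 genes passed with tamoxifen and 1 without it, CIAO1 (-0.25). Its other 2 probe sets differed by 0.08 and -0.13 without tamoxifen, and by 0.27 (adjusted p = 0.0273) and -0.26 (adjusted p = 0.0187) with it, so that its probe sets had no common direction.

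The last 3 lists held few calls, where 15.2% of all genes passed with tamoxifen and 11.9% without it. Of 8 measured enzymes and carriers of citrate and isocitrate, the substrates of aconitase, the mitochondrial IDH3A (-0.34) and the cytosolic ACLY (-0.28) fell in tamoxifen-treated cells, and 0 passed in untreated cells (lowest adjusted p 0.133, for ACLY). Of 9 measured iron chaperones and regulators of ferritin or iron regulatory protein 2, GLRX3 fell in tamoxifen-treated cells (-0.25), and 0 passed in untreated cells (lowest adjusted p 0.135, for the chaperone PCBP1, which differed by 0.19). The other GLRX3 probe sets differed by -0.44 to 0.10. Of 8 lysosomal and ferritin autophagy genes, LAMP2 rose in untreated cells (0.17), and 0 passed in tamoxifen-treated cells (lowest adjusted p 0.125, also for LAMP2). The other 3 LAMP2 probe sets differed by 0.06, 0.01 and -0.15 in untreated cells, and the mean of all by 0.02 (adjusted p = 0.852). All calls on the brightest probe sets of the wider lists were lost with the replicate number as a term, with some exceptions. These were EPAS1 and HMOX1 in both treatments, NFU1 with tamoxifen, and STEAP1, STEAP3, STEAP4 and TFR2 without it.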

How the data were processed

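Log2 expression values of 54675 probe sets on 14 arrays were deposited by the authors in 1 value table. The base was taken as 2 from their range, since no label states it. R 2.9.2 is named in the submitters' processing notes, and background correction, normalization and summarisation are not stated in those notes. The values were used as deposited. After 62 control probe sets were left out, 54613 remained, of which 41091 carried 1 gene symbol in GEO's platform annotation, 1801 several and 11721 none. Only probe sets with 1 symbol were named.

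Group means were fitted over all 14 arrays with limma 3.58.1 (statmod 1.5.0) in R 4.3.3, for knockdown with and without tamoxifen, tamoxifen with SRC1 or control siRNA, and their interaction. P-values were two-sided and adjusted over all probe sets. NCOA1 was compared by exact permutation. Where 1 value per gene was needed, the probe set with the highest mean was used. Members, gene lists and tests were chosen with earlier results of these data known. The genes named are the members, NCOA1, the iron-list genes that passed or had 1 of the 2 smallest p-values, and the 5 genes most like ACO1. Promoter sequences came from RefSeq (GRCh38.p14); the files name no genome build. Alternatives were quantile normalization, median centring, no dim probe sets, the replicate number as a term, only the groups compared, other limma settings, gene means and leaving out arrays. Tables used Python 3.11.15 with pandas 2.3.3, numpy 2.4.6 and scipy 1.17.1, and figures matplotlib 3.10.9.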

Additional observations from a re-analysis of the deposited data

Results flagged for a closer look

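Among 69 groups of 4 arrays examined for the iron and NCOA1 probe sets, 2 held an array far from the other 3 by Dixon's criterion, which chance meets in about 1 group of 20. For the weaker FTL probe set, 213187_x_at, untreated control siRNA replicate 3 was the highest of its group at 12.02, against 11.84 for the next array. For the weaker FBXL5 probe set, 209005_at, untreated SRC1 siRNA replicate 2 was the lowest of its group at 6.36, against 6.56 for the next array. By the same criterion the brighter probe sets of FTL and FBXL5 held no such array.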

How the results depend on the processing

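The ACO1 difference stayed between -1.72 and -0.74 with tamoxifen and between -1.92 and -0.84 without it; the smallest values, -0.74 and -0.84, came from averaging in the dim probe set. Without single arrays NCOA1 in untreated cells differed by -1.40 to -1.16, with an exact permutation p of 0.0571, the smallest then possible. The count of iron probe sets that passed for knockdown with tamoxifen, 1 of 17, became 0 with the replicate block, in a fit of only the groups compared, with array weights and with gene means, and 0 to 2 without single arrays. It was 2 without all arrays of replicate 4, a setting chosen after seeing the data: FTL (adjusted p = 0.0483) and the SLC11A2 probe set 203123_s_at (adjusted p = 0.0176). Without tamoxifen the count was 0 to 1 without single arrays. The 1 was an SLC11A2 probe set other than the brightest, without control siRNA tamoxifen replicate 4 (adjusted p = 0.0373). The brightest SLC11A2 probe set reached an adjusted p of 0.0502 at the lowest in these settings. Tamoxifen and interaction counts stayed at 0 in every setting run. The causes were not tested.

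Over 18 pairs of same-numbered arrays, deviations from the group means correlated at -0.585 to -0.0421, with a median of -0.334. All were negative, so same-numbered arrays tended to deviate in opposite directions. The main fit has no term for the replicate number, and the source of this pattern was not tested. With the replicate block, calls over all probe sets were 1224 against 7350 for knockdown with tamoxifen, 2154 against 5653 without it, and 0 against 824 for tamoxifen in SRC1-siRNA cells. Median centring gave 2653 higher and 5366 lower for knockdown with tamoxifen, against 3147 and 4203. Of 93 wider iron genes, 6 were higher and 5 lower with tamoxifen, and 3 higher and 5 lower without it, in a fit of only the groups compared.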

Other observations

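The genes beside ACO1 on its chromosome, in the order of the RefSeq annotation of GRCh38.p14, were read after the ACO1 values had been seen. RIGI, the RNA sensor of the interferon response, is the next gene on one side and lies on the opposite strand. It read 11.91 and 11.70 with SRC1 siRNA and tamoxifen, against 10.82, 11.18, 11.30 and 9.90 with control siRNA and tamoxifen, a difference of 1.004 that did not pass (limma adjusted p = 0.195). In untreated cells RIGI read 12.07, 11.63, 11.42 and 13.20 with SRC1 siRNA, against 10.72, 11.18, 11.41 and 9.99 with control siRNA, a difference of 1.26 that did not pass either (adjusted p = 0.0651). The arrays of replicate 4 held the extremes, 13.20 and 9.99. TOPORS, a ubiquitin and SUMO ligase one gene further on, was lower with SRC1 siRNA in tamoxifen-treated cells (-0.30, adjusted p = 0.0291) and differed by -0.15 in untreated cells (adjusted p = 0.188). SMIM27 differed by 0.17 and 0.22 and C9orf72 by -0.25 and -0.15, and none of these passed.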
